A study of Mus musculus with 9 samples.

Results

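The nuclear genes for the proteins of the mitochondrial ribosome were taken as all rows of the deposited expression table whose Ensembl identifier maps to a symbol made of Mrpl or Mrps and a number, with or without a final letter. The rule found 77 of the 12204 listed genes, 48 with an Mrpl symbol and 29 with an Mrps symbol. The annotation holds 78 such symbols, and Mrpl53 is the one not among the listed genes. By the position of the protein in the mammalian mitochondrial ribosome, 50 belong to the large subunit, Mrps18a and Mrps30 included despite their names, and 26 to the small subunit. The remaining one, Mrps36, encodes a component of the 2-oxoglutarate dehydrogenase complex of the citric acid cycle and no ribosomal protein, but the rule keeps it. The members lie on 17 chromosomes.

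The study measured messenger RNA in macrophages grown from bone marrow of C57/Bl6J mice over 6 days with 20% supernatant of L929 cells, which supplies macrophage growth factor. The untreated group (UT) received nothing, the LPS group received 10 ng/ml lipopolysaccharide, a bacterial cell wall component sensed by Toll-like receptor 4, for 4 h, and the third group (LPS + BMS) received 50 µM BMS303141 for 1 h and then the same LPS. BMS303141 inhibits ATP-citrate lyase, the enzyme that makes cytosolic acetyl-CoA from citrate, and the question of the study was the part of this enzyme in what Toll-like receptor signals do to macrophages. Each group had 3 libraries. No library had the inhibitor alone and no vehicle is named in the labels, so BMS303141 was compared only where LPS was present as well. Whether replicates are separate mice or cultures is not stated, and the p-values below therefore cover the spread among the 9 libraries alone, which could be technical.

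The mitochondrial ribosome translates the few messenger RNAs of the mitochondrial genome, all of which encode subunits of the respiratory chain and ATP synthase. Its RNAs come from the mitochondrial genome, whereas its proteins are encoded in the nucleus, made in the cytosol and imported, so the particle depends on both genomes. Some of its proteins have counterparts in bacterial ribosomes, and others arose in the mitochondrial lineage. Macrophages activated with LPS are known for a shift from respiration toward glycolysis.

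Promoters are shown for 4 members that the results below turn on: Mrpl52 and Mrps18b, whose RNA was higher with LPS, and Mrpl41 and Mrps12, whose RNA was lower. Each run is the RefSeq window from 250 bases before to 50 bases after the gene's start, 5′ to 3′ on the gene's strand, in build GRCm38.p6. Capitals mark matches, on either strand, to CCGGAAG (a core bound by ETS factors such as GABP), AAGATGGC (bound by YY1), GCGCA and GCGC with 1 base of any kind between them (bound by NRF1), or GGG and TTCC with 3 bases of any kind between them (bound by NF-κB). The windows are chr14:54426659-54426958 on the plus strand for Mrpl52, and, on the minus strand, chr17:35916391-35916690 for Mrps18b, chr2:24975049-24975348 for Mrpl41 and chr7:28741772-28742071 for Mrps12. The RefSeq start of Mrps18b lies 51 bases upstream of the start in the GENCODE annotation, whose gene coordinates are given below, so all letters of its window lie before the GENCODE start.
Mrpl52: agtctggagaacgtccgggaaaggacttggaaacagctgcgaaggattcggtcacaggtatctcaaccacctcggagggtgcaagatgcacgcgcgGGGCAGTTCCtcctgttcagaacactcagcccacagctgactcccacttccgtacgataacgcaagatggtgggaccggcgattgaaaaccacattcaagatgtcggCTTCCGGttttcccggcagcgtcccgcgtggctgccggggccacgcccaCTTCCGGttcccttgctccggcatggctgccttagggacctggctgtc
Mrps18b: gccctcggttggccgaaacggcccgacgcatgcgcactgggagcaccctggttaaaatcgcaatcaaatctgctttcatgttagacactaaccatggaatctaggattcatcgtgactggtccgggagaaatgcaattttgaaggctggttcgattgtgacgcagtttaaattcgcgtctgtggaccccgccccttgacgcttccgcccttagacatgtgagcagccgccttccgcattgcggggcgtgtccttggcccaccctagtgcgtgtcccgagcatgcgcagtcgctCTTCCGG
Mrpl41: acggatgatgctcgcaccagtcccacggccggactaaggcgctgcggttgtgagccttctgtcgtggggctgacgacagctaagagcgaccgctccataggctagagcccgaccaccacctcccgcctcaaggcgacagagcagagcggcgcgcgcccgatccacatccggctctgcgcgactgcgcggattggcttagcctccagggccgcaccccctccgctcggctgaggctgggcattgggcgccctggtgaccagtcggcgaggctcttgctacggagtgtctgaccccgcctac
Mrps12: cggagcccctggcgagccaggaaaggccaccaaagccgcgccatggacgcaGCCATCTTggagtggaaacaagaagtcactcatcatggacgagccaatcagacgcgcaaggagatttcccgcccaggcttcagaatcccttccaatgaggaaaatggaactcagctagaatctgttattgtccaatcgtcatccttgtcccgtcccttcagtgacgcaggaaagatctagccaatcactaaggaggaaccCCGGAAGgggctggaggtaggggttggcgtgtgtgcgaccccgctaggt

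A RefSeq promoter window was found for 68 members, and the same letters were counted in the windows of 8171 listed genes. CCGGAAG was in 25 member windows (36.8%) and in 22.6% of the listed genes' windows. AAGATGGC was in 12 member windows (17.6%) against 6.02%, and the NRF1 letters in 13 (19.1%) against 12.8%. The NF-κB letters were in 4 member windows (5.88%) against 7.39%. A core of interferon response elements, GAAA repeated after 2 bases of any kind, was in 3 (4.41%) against 4.06%. The 4 windows with the NF-κB letters belong to Mrpl10, Mrpl33, Mrpl34 and Mrpl52. Of 7 matched members that rose with LPS, 3 held CCGGAAG and 1 the NF-κB letters, and of 14 that fell, 6 and 1. The Mrpl52 window holds CCGGAAG in 2 places and the NF-κB letters in 1, the Mrps18b window CCGGAAG, and the Mrps12 window CCGGAAG and AAGATGGC. TTCC is also part of the reverse of CCGGAAG. A match describes the letters only, and the Mrpl41 window holds none of them.

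The deposited values are log2 CPM (reads of a gene scaled to a common library total), quantile-normalised across the libraries, and their steps correspond to about 1.835 M (mega) reads in LPS replicate 1 and 2.98 to 5.05 M reads in the other libraries. Reads come from transcript 3′ ends, so levels of different genes count transcript ends and are not corrected for length. All 10 macrophage markers looked for were listed, with a summed level of 11719 to 12221 CPM in UT, 6318 to 6429 CPM in LPS and 5923 to 6091 CPM in LPS + BMS. Of the 10, 8 were called lower and 1 higher with LPS, beside 25.4% and 21.5% of all tested genes (limma, adjusted p under 0.05). The one called higher, Cd14, rose by 1.80 on the log2 scale (limma adjusted p = 0.00027), and Adgre1, with a difference of 0.07, was not called. Of other cell types, markers of dendritic cells, B cells and erythroid cells were not among the listed genes, and 1 of 5 T and NK cell, 1 of 5 mast cell and 3 of 6 stromal markers were listed. The listed mast cell marker, Hdc (histidine decarboxylase), stood at 2.21 to 2.59 CPM in UT, 106 to 118 CPM in LPS and 60.5 to 77.2 CPM in LPS + BMS, while Cpa3, Mcpt4, Kit and Fcer1a were not listed. The stromal markers summed to 3.02 to 15.3 CPM and the T and NK cell marker stood at 0.651 to 7.53 CPM over the libraries. Of 8 neutrophil markers S100a8 and S100a9 were listed, with summed levels of 7.81 to 29.6 CPM in UT, 33.9 to 60.9 CPM in LPS and 172 to 264 CPM in LPS + BMS, while Ly6g, Mpo and Elane were not. The sum followed S100a8, with means of 3.30, 5.46 and 7.75 log2 CPM in UT, LPS and LPS + BMS. S100a9 was low in all groups, with means of 0.82, 0.39 and 0.87 log2 CPM. The part of these marker differences in the results below was not tested. In bulk RNA, fewer cells of a type and less RNA per cell cannot be told apart.

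The members were expressed at moderate levels. Their median over the 9 libraries was 4.19 log2 CPM (18.2 CPM), beside 3.80 log2 CPM for all listed genes, 5.41 for 75 nuclear genes of respiratory chain subunits and 6.45 for 79 genes of cytosolic ribosomal proteins. The highest means over the libraries were those of Mrpl12, Mrps12, Mrps18a and Mrps6, and the lowest those of Mrps28, Mrps27, Mrps11 and Mrpl23. Mrpl12, a protein of the ribosomal stalk that also binds the mitochondrial RNA polymerase, stood at 6.40, 6.32 and 6.26 log2 CPM in UT, 6.49, 6.07 and 6.16 in LPS and 6.30, 5.99 and 6.19 in LPS + BMS. These 3 ranges overlap. The gene at the other end, Mrps28, rested on 0 to about 9.2 reads a library.

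Summed over the 77 members, the level was 1772 ± 18.99 CPM in UT, 1644 ± 22.43 CPM in LPS and 1654 ± 14.54 CPM in LPS + BMS (SD, n = 3 each). Every UT library was above every other library, and the LPS and LPS + BMS libraries overlapped. The median member moved less than the sum, which follows the most abundant genes. It stood at 4.10, 4.16 and 4.16 log2 CPM in the mean profiles of UT, LPS and LPS + BMS.

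**Figure D1:**
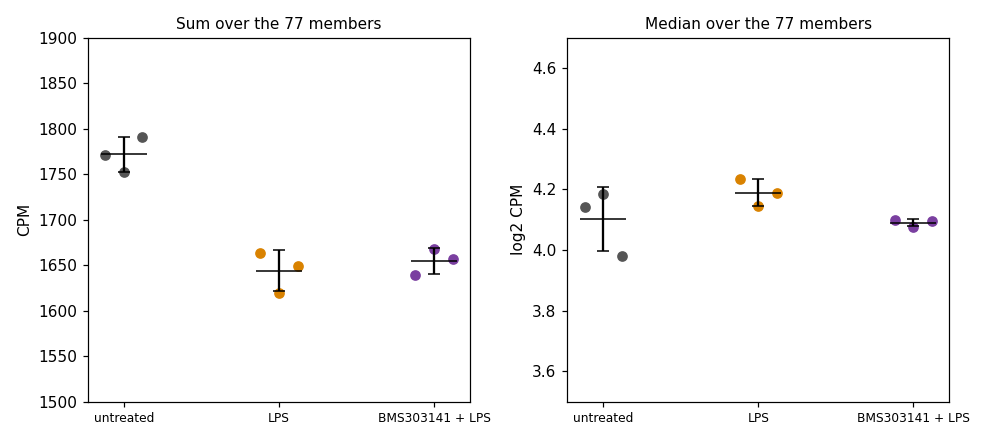
Summed CPM (left) and median log2 CPM (right) of the 77 members in each library; points are libraries, horizontal lines are means and bars are SD, n = 3 per group. The axes do not start at 0. The sum was 1772 CPM in UT and lower in both LPS groups, while the median in single libraries overlapped between UT and LPS.

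With LPS, single members of the mitochondrial ribosome moved in both directions. Of the 77 members, all of which were tested, 8 (10.4%) were called higher in LPS than in UT, beside 21.5% of all 12196 tested genes, and 15 (19.5%) were called lower, beside 25.4% (limma, adjusted p under 0.05). The other 54 were not called. The median difference over the members was -0.05 on the log2 scale, beside -0.06 over all tested genes, with 37 members above 0 and 40 below. At least a 2-fold difference was found for 8 members (10.4%) and for 30.4% of all tested genes. The UT and LPS libraries did not overlap for 25 of the 77 members. Of these, 11 were higher with LPS, beside 23.7% of all tested genes without overlap in that direction, and 14 lower, beside 28.9%; 18 of the 25 were called. By subunit, 5 of 50 large-subunit genes were called higher and 9 lower, and 3 of 26 small-subunit genes higher and 6 lower. Of 48 genes with bacterial counterparts 6 were called higher and 7 lower, and of 28 mitochondria-specific ones 2 higher and 8 lower.

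**Figure D2:**
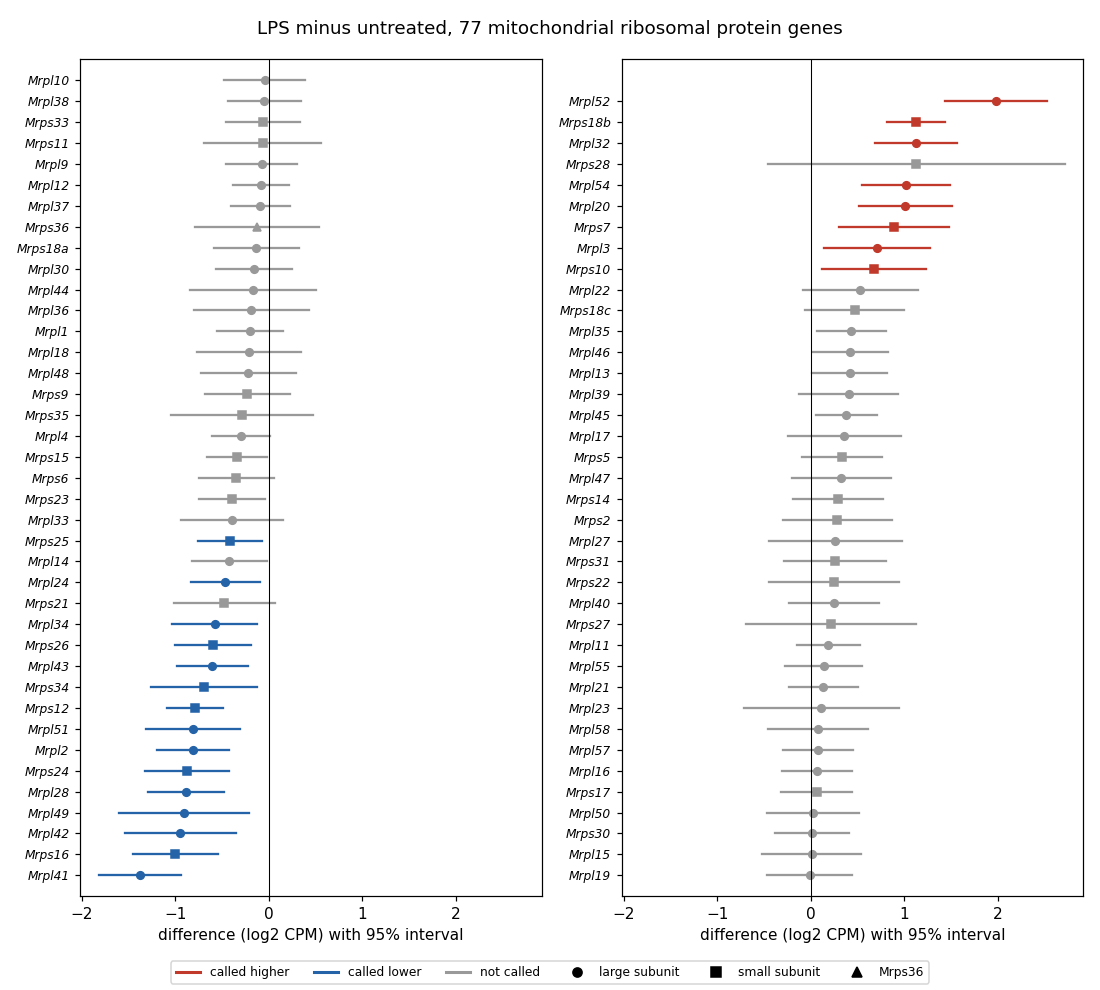
Difference between LPS and UT (log2 CPM, horizontal axis) for each of the 77 members, with its 95% interval from limma; red marks members called higher, blue those called lower and grey those not called, and the marker shape gives the subunit. The differences run from -1.38 for Mrpl41 to 1.99 for Mrpl52.

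Among the 8 genes that rose, Mrpl52 had the largest difference. It encodes a mitochondria-specific protein of the large subunit and lies on the plus strand at chr14:54426909-54429756. Its level was 4.14, 3.91 and 3.11 log2 CPM in the UT libraries, 5.23, 5.99 and 5.90 in LPS and 6.10, 6.32 and 6.28 in LPS + BMS. Every LPS library was above every UT library, and every LPS + BMS library above every LPS library. The difference between LPS and UT was 1.99 ± 0.25 on the log2 scale (SE; 3.97-fold; limma adjusted p = 2.47e-05). The next gene on the same strand, Mmp14, a matrix metalloproteinase, starts 1856 bases past the end of Mrpl52 and rose by 4.87 ± 0.15 on the log2 scale (SE; limma adjusted p = 3.63e-11). Whether reads from one were counted for the other was not tested. The same holds for 2 of the genes that fell, described below: Cul7 starts 198 bases past Mrpl2 on the same strand and fell by 1.04 on the log2 scale (limma adjusted p = 0.0124), and Dnajc9 starts 394 bases past Mrps16 and fell by 1.71 (limma adjusted p = 9.22e-05). Other such neighbours did not move with the member. Atat1 starts 304 bases past Mrps18b, which rose, and differed by -0.007 (limma adjusted p = 0.987). Osbpl7, past Mrpl10, and Trim65, past Mrpl38, fell by 0.97 and 2.44, while Mrpl10 and Mrpl38 were not called. In all, 7 members have such a neighbour within 2000 bases, 6 of them with a listed one.

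Mrps18b encodes one of 3 paralogues of bacterial protein S18 and lies on the minus strand at chr17:35910379-35916389. It stood at 4.19, 3.94 and 3.98 log2 CPM in UT, at 5.17, 5.16 and 5.16 in LPS and at 5.09, 5.29 and 5.13 in LPS + BMS. The 3 LPS libraries were nearly equal and all above UT, with a difference of 1.13 ± 0.14 (log2, SE; limma adjusted p = 2.68e-05). The paralogues were not called: Mrps18a, placed in the large subunit, stood at 5.73, 5.86 and 6.35 log2 CPM in UT and 6.26, 5.57 and 5.71 in LPS. Mrps18c stood at 3.21, 2.95 and 2.75 in UT and 3.43, 3.17 and 3.71 in LPS. Both sets of values overlap between the groups, and whether the paralogues differed in response was not tested.

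Mrpl32 encodes a counterpart of bacterial L32 whose maturation by the m-AAA protease is a step of ribosome assembly in yeast and mouse. It rose from 2.95, 3.06 and 3.46 log2 CPM in UT to 4.53, 4.09 and 4.23 in LPS, by 1.13 ± 0.20 (log2, SE; limma adjusted p = 0.000462). In LPS + BMS it stood at 3.87, 3.81 and 3.75, so that the 3 groups did not overlap and LPS was the highest. Mrpl54, a mitochondria-specific protein, stood at 3.13, 2.89 and 2.68 in UT, 3.59, 4.30 and 3.88 in LPS and 4.15, 4.19 and 4.14 in LPS + BMS, and rose with LPS by 1.02 ± 0.22 (log2, SE; limma adjusted p = 0.00181). Mrpl20, the counterpart of bacterial L20, stood at 3.45, 4.10 and 3.64 in UT, 4.39, 5.15 and 4.69 in LPS and 4.77, 5.25 and 4.91 in LPS + BMS. It rose with LPS by 1.01 ± 0.23 (log2, SE; limma adjusted p = 0.00267), with no overlap between UT and LPS.

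The other 3 risers had smaller differences that depended on single libraries. Mrps7, counterpart of bacterial S7, was higher by 0.89 ± 0.27 (limma adjusted p = 0.0168), Mrpl3, counterpart of L3, by 0.71 ± 0.26 (limma adjusted p = 0.0405) and Mrps10, counterpart of S10, by 0.68 ± 0.26 (log2, SE; limma adjusted p = 0.0459). The call for Mrps7 was lost without UT replicate 1 or 2 or LPS replicate 3, with an adjusted p of up to 0.0702 in limma. Over the alternatives that lost the call, the adjusted p reached 0.168 for Mrpl3 and 0.147 for Mrps10 in limma, among them fits without LPS replicate 3 for both. Mrps7 overlaps Mif4gd on the opposite strand over 119 bases, and as the strand setting of the counting is not given in the sources used here, reads of such pairs may not be separable.

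**Figure D3:**
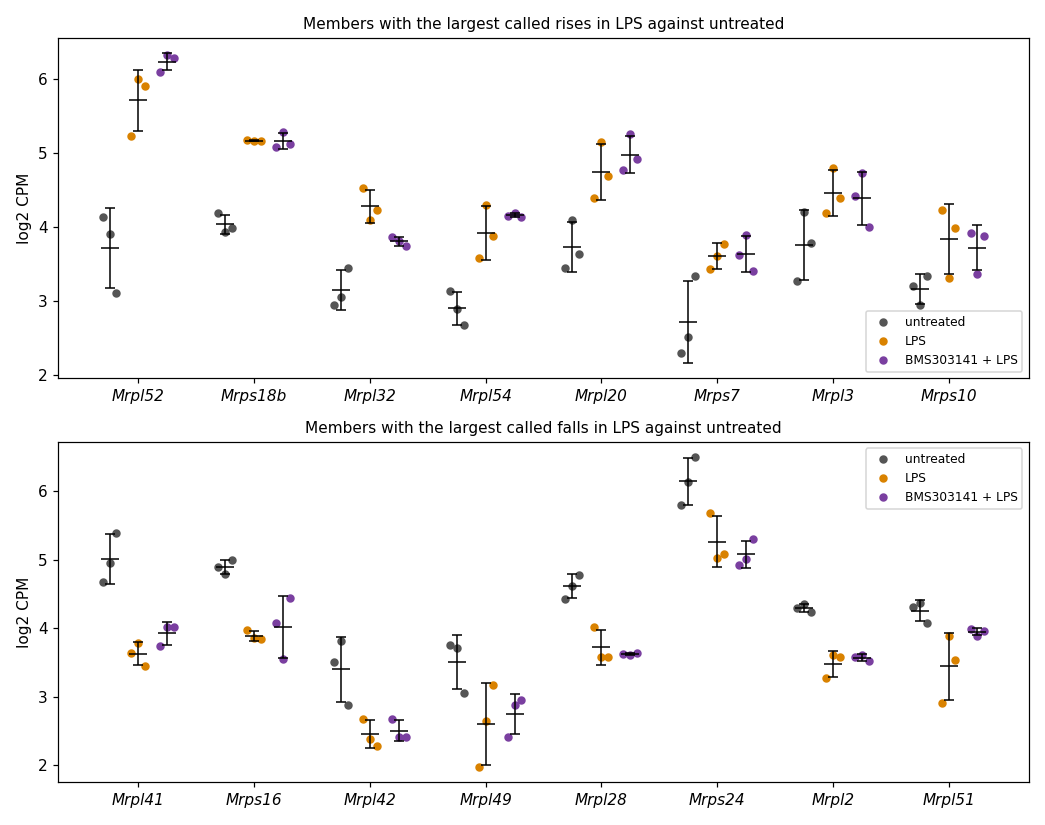
Levels (log2 CPM, vertical axis) of the 8 members with the largest called rises (top) and the 8 with the largest called falls (bottom) in LPS against UT; points are libraries, horizontal lines means and bars SD, n = 3 per group. Mrpl52 rose from 3.72 in UT to 5.71 in LPS on average, and Mrpl41 fell from 5.01 to 3.63.

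Among the 15 genes that fell, Mrpl41 had the largest difference. It encodes a mitochondria-specific protein of the large subunit and lies on the minus strand at chr2:24974117-24975098. Its level was 4.67, 4.96 and 5.39 log2 CPM in UT, 3.65, 3.79 and 3.46 in LPS and 3.74, 4.01 and 4.02 in LPS + BMS. All UT libraries were above all others. The difference between LPS and UT was -1.38 ± 0.21 on the log2 scale (SE; 0.384-fold; limma adjusted p = 9.81e-05).

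In the small subunit, Mrps16, counterpart of bacterial S16, stood at 4.89, 4.79 and 4.99 log2 CPM in UT, 3.97, 3.85 and 3.85 in LPS and 4.07, 3.55 and 4.44 in LPS + BMS. It fell by 1.00 on the log2 scale with LPS (SE 0.21; limma adjusted p = 0.00156), with no overlap. Mrps12, the counterpart of S12 at the decoding centre, was the second most abundant member, at 6.51, 6.61 and 6.82 in UT, 6.00, 5.74 and 5.82 in LPS and 5.98, 5.66 and 5.96 in LPS + BMS. Its difference was -0.79 ± 0.14 (log2, SE; limma adjusted p = 0.000368), again without overlap. Mrps24, the counterpart of S3, stood at 5.80, 6.13 and 6.49 in UT and 5.69, 5.02 and 5.08 in LPS, without overlap, with a difference of -0.88 ± 0.21 (log2, SE; limma adjusted p = 0.00375). It shares 2264 bases with Urgcp on the same strand, so its reads are uncertain to that degree. The same holds for Mrpl2 (3911 bases with Gm26904), Mrpl3 (3245 with Gm38077), Mrps34 (1003 with Nme3) and Mrpl51 (87 with Mir3098). On the opposite strand, several called members overlap a gene as well, such as Mrps25 (4770 bases with Nr2c2) and Mrps34 (2387 with Mapk8ip3).

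In the large subunit, Mrpl28, counterpart of L28, stood at 4.43, 4.62 and 4.78 log2 CPM in UT, 4.02, 3.58 and 3.58 in LPS and 3.63, 3.61 and 3.64 in LPS + BMS, with an LPS difference of -0.89 ± 0.19 (log2, SE; limma adjusted p = 0.00161). Mrpl2, counterpart of L2 next to the peptidyl transferase centre, stood at 4.29, 4.35 and 4.24 in UT, 3.27, 3.61 and 3.58 in LPS and 3.59, 3.61 and 3.52 in LPS + BMS, with a difference of -0.81 ± 0.18 (log2, SE; limma adjusted p = 0.0022). Neither gene overlapped between UT and LPS. Mrpl51, mitochondria-specific, stood at 4.31, 4.37 and 4.08 in UT and 2.91, 3.88 and 3.54 in LPS and fell by 0.81 on the log2 scale (limma adjusted p = 0.0114), with LPS replicate 1 the lowest. Mrpl42, also mitochondria-specific, fell by 0.95 (limma adjusted p = 0.0122; 0.0686 without UT replicate 2). Mrpl49, likewise mitochondria-specific, fell by 0.91 (limma adjusted p = 0.0338), and lost its call without UT replicate 1 or 2 or LPS replicate 1 or 2, with an adjusted p of up to 0.112. The other 6 genes called lower, Mrpl24, Mrpl34, Mrpl43, Mrps25, Mrps26 and Mrps34, had differences from -0.69 to -0.42. They are named after their values were seen, and each lost its call in at least 1 fit that left out a library.

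Several members chosen for their roles were not called with LPS. Mrpl58, a peptidyl-tRNA hydrolase that frees stalled ribosomes, stood at 3.99, 3.67 and 3.42 log2 CPM in UT and 4.27, 3.58 and 3.46 in LPS. Mrps30 stood at 3.90, 4.04 and 3.72 in UT and 3.97, 3.75 and 3.99 in LPS. Mrps35 stood at 3.41, 2.95 and 2.26 in UT and 2.20, 3.27 and 2.29 in LPS, and Mrps36 at 2.83, 2.68 and 2.75 in UT and 3.02, 2.19 and 2.68 in LPS. The UT and LPS libraries overlap for all 4 genes.

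BMS303141 ahead of LPS was followed by no called difference among the members. In LPS + BMS against LPS, 0 of 77 members were called higher, beside 0.959% of all tested genes, and 0 lower, beside 1.16% (limma, adjusted p under 0.05). With shares this low over all genes, 0 calls among 77 members does not set the members apart. At an unadjusted p under 0.05 in limma, 3 were higher and 3 lower. The share of all tested genes at that unadjusted threshold was not counted, so these numbers have no background beside them. The median difference was -0.02 on the log2 scale, and -0.00 over all tested genes. No member differed by 2-fold or more, beside 5.67% of all tested genes. For 64 members the 95% interval lay wholly within a 2-fold change in either direction, which was not counted over all tested genes. For the other 13 a 2-fold change is not outside the interval.

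**Figure D4:**
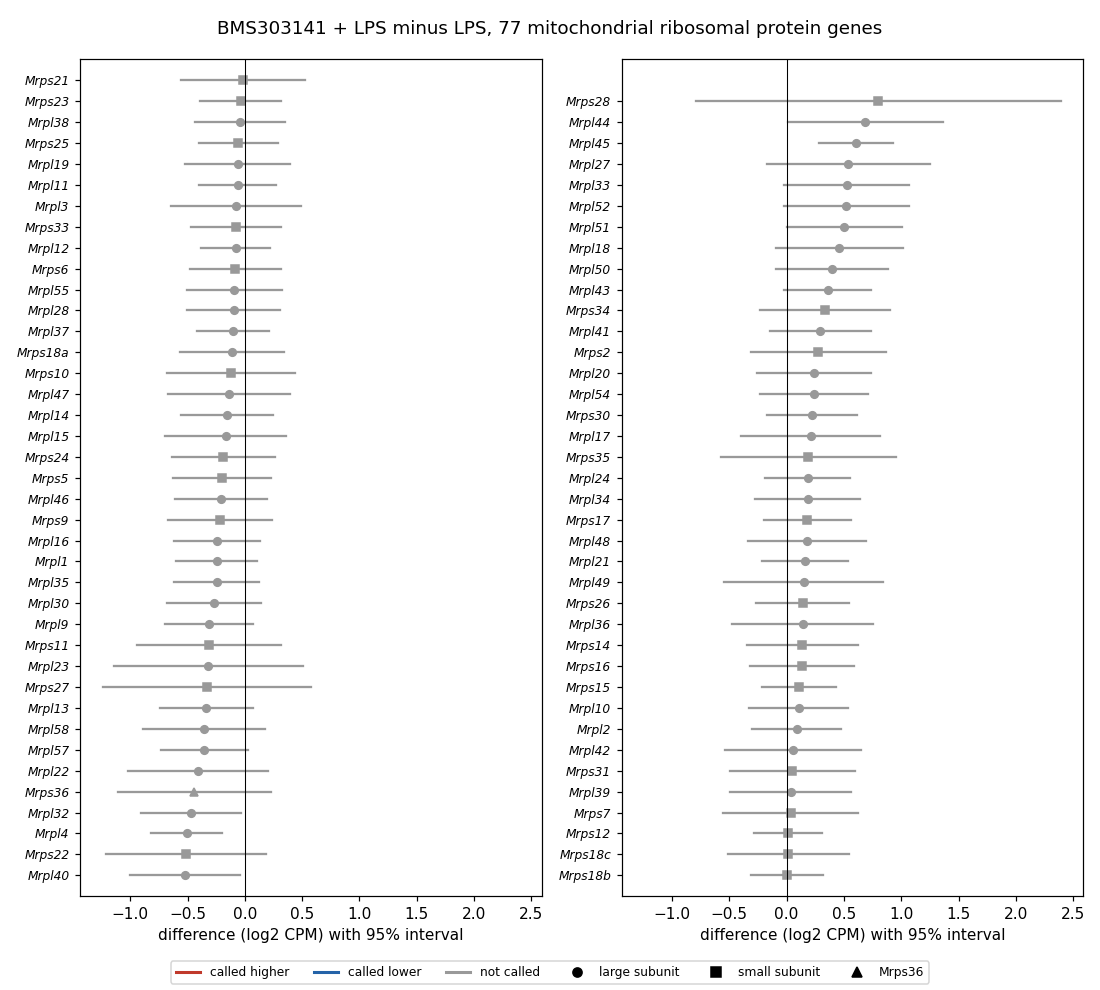
Difference between LPS + BMS and LPS (log2 CPM, horizontal axis) for each of the 77 members, with its 95% interval from limma; all points are grey because no member was called, and the marker shape gives the subunit. The widest interval is that of Mrps28, which rests on few reads.

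The 4 members with the smallest p in that comparison were all in the large subunit. Mrpl45, a mitochondria-specific protein at the exit of the peptide tunnel that in human cells contacts the inner membrane, stood at 4.10, 4.04 and 3.98 log2 CPM in UT, 4.42, 4.39 and 4.46 in LPS and 4.99, 4.93 and 5.18 in LPS + BMS. The groups formed 3 separate steps. The difference between LPS + BMS and LPS was 0.61 (95% interval 0.29 to 0.93; limma adjusted p = 0.0544), and that between LPS and UT was 0.38 ± 0.15 (SE; limma adjusted p = 0.0507), both just outside the threshold. The LPS step was called in 4 of the alternatives (limma adjusted p = 0.0157 to 0.0499). The sum of both steps, LPS + BMS against UT, was called, at 0.99 ± 0.15 (SE; 1.99-fold; limma adjusted p = 0.000118).

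Mrpl4, counterpart of the L4 protein that lines the peptide tunnel, formed steps in the other direction, at 4.95, 5.15 and 5.05 log2 CPM in UT, 4.78, 4.78 and 4.69 in LPS and 4.20, 4.33 and 4.20 in LPS + BMS. Its difference between LPS + BMS and LPS was -0.51 ± 0.14 (log2, SE; limma adjusted p = 0.0964), and against UT -0.81 ± 0.14 (limma adjusted p = 0.000454). Separate steps in 1 direction over the 3 groups were found for Mrpl45 and Mrpl52 upward and for Mrpl4 downward, beside 2.55% of all listed genes upward and 2.26% downward. Mrpl40 and Mrpl32 were lower by 0.53 and 0.47 on the log2 scale in LPS + BMS than in LPS (limma adjusted p = 0.292 and 0.297). For Mrpl52 the difference was 0.52 (95% interval -0.03 to 1.07; limma adjusted p = 0.361), and for Mrpl41 0.30 (-0.15 to 0.74; limma adjusted p = 0.538).

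Against UT, LPS + BMS gave 8 members called higher (10.4%), beside 21.5% of all tested genes, and 12 called lower (15.6%), beside 25.6% (limma, adjusted p under 0.05). This comparison shares its UT libraries with LPS against UT, so the counts are set side by side only. Called higher in both were Mrpl20, Mrpl32, Mrpl52, Mrpl54, Mrps18b and Mrps7, and called lower in both were Mrpl2, Mrpl28, Mrpl41, Mrpl42, Mrps12, Mrps16, Mrps24 and Mrps25. In fits leaving out 1 library, 5 of the 8 higher and 7 of the 12 lower calls against UT remained throughout. Among those lost were Mrpl32 (limma adjusted p of up to 0.0581), Mrps7 (0.063), Mrpl42 (0.0871) and Mrps25 (0.0874). Mrpl14, with a difference of -0.58 on the log2 scale, was lost as well (limma adjusted p of up to 0.105). So were Mrpl1 and Mrps23, with differences of -0.45 and -0.43. Over all alternatives that lost their calls, the replicate block included, the limma adjusted p reached 0.123 for Mrpl1 and 0.211 for Mrps23. The largest rise was again that of Mrpl52, at 2.51 ± 0.25 (log2, SE; 5.69-fold; limma adjusted p = 2.89e-06), and the largest fall that of Mrpl41, at -1.08 ± 0.21 (limma adjusted p = 0.00073). Mrps28 was called higher (limma adjusted p = 0.046), but it held an estimated 0 reads in UT replicate 2 and about 9.2 at most in any library. The call was lost without UT replicate 2 and in 9 of the alternatives in all.

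Genes that work with the mitochondrial ribosome also held calls in both directions. The counts of each list are set beside 21.5% of all tested genes called higher and 25.4% lower with LPS (limma, adjusted p under 0.05). Whether any list differed from these shares was not tested. Of 27 tested assembly factors 2 were called higher and 6 lower with LPS. Rbfa, which matures the small-subunit RNA, fell by 1.76 on the log2 scale (SE 0.21; limma adjusted p = 1.3e-05), and Mrm2, a methyltransferase of the large-subunit RNA, fell by 1.67 (SE 0.38; limma adjusted p = 0.00282). Of 13 translation factors 2 were called higher and 3 lower, among them the initiation factor Mtif2, which fell by 0.81 (limma adjusted p = 0.000306), and Guf1, which fell by 1.05 (limma adjusted p = 0.0061). Of 19 tRNA synthetases 3 were called higher and 8 lower. Iars2, for mitochondrial isoleucine, fell by 0.78 (limma adjusted p = 0.000738), and Gars, which serves cytosol and mitochondria, rose by 0.92 (limma adjusted p = 0.00113).

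Of 5 ribosomal proteins with other symbols (Dap3, Aurkaip1, Ptcd3, Gadd45gip1 and Chchd1), Gadd45gip1 was called, with a rise of 0.68 ± 0.23 (log2, SE; limma adjusted p = 0.0278) that was lost in some fits leaving out a library. Of 9 mitochondrially encoded messenger RNAs 1 was called higher and 4 lower, beside 21.5% and 25.4% of all tested genes. The 2 mitochondrial ribosomal RNAs are left out, since quantile normalisation held mt-Rnr2 at 1 value in every library and mt-Rnr1 at 1 value in 8 of 9. Among those called lower were mt-Nd5 and mt-Nd1, for subunits of complex I, which fell by 0.63 and 0.43 (limma adjusted p = 0.000279 and 0.0066). Of 9 nuclear regulators of mitochondrial genes 3 were called higher and 0 lower with LPS, beside the same shares of all tested genes. Pprc1, a coactivator related to PGC-1, rose by 1.42 ± 0.17 and Gabpb1, a subunit of GABP, by 1.26 ± 0.25 (log2, SE; limma adjusted p = 1.52e-05 and 0.00112). Lrpprc, which stabilises mitochondrial messenger RNA, fell by 0.50 (limma adjusted p = 0.0115; 0.056 without UT replicate 1) as the one gene called of 5 in mitochondrial transcription and RNA stability.

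For comparison, 4 of 79 cytosolic ribosomal protein genes were called higher and 22 lower, with a median difference of -0.21 on the log2 scale. Of 75 nuclear genes for respiratory chain subunits 1 was called higher and 13 lower, with a median of -0.11. Over all tested genes, 21.5% were called higher and 25.4% lower, with a median of -0.06. Whether the members differed from these groups was not tested. None of these 9 lists held a call in LPS + BMS against LPS, beside 0.959% of all tested genes called higher and 1.16% lower (limma, adjusted p under 0.05). At an unadjusted p under 0.05 in limma, 13 of their 241 tested genes were higher and 11 lower. The shares above are for the adjusted p, and the share of all tested genes at the unadjusted threshold was not counted. With weights per library, Ngrn, an assembly factor, was higher by 0.74 and Ppargc1b, a coactivator of mitochondrial genes, was called lower (limma adjusted p = 0.0413 and 0.0243). Both missed the threshold in the unweighted fit, and weights called 3.34% of all tested genes in each direction.

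**Figure D5:**
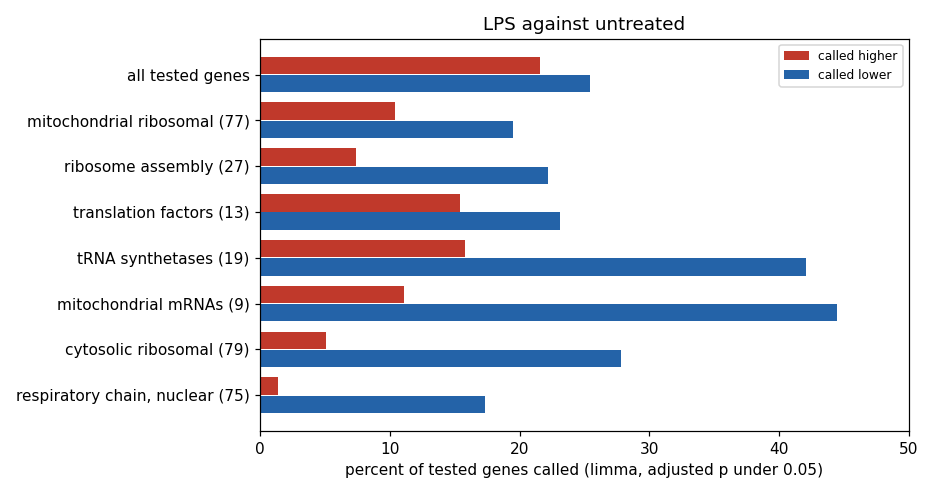
Percent of tested genes called higher (red) and lower (blue) in LPS against UT (limma, adjusted p under 0.05) for all tested genes, the 77 members and related lists, with the number of tested genes in brackets. Members were called higher in 10.4% and lower in 19.5%, beside 21.5% and 25.4% of all tested genes.

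Some members lie head to head with a gene on the other strand. A divergent neighbour whose start lies within 1000 bases (with at most 200 bases of overlap) was annotated for 23 members (29.9%), beside 13.2% of 9936 listed protein-coding genes. For 20 pairs the neighbour was listed, and in 13 of these both genes differed in the same direction between LPS and UT. Over all 525 divergent pairs of listed protein-coding genes, 58.7% had the same direction, beside 65% of the 20. Across these 20 pairs, which share libraries and are not replicates, the differences had a Pearson r of 0.42 and a Spearman rho of 0.38. Of the 20 neighbours 9 (45%) were called, beside 46.98% of all tested genes. In 5 pairs (25%, beside 18.9% of the 525) both genes were called, and 4 of the 5 went in the same direction. Over the 99 of the 525 pairs with both genes called, 73.7% had the same direction. Mrpl41 with Pnpla7 (-1.86), Mrpl2 with Klc4 (-3.14), Mrpl51 with Ncapd2 (-1.99) and Mrpl49 with Fau (-0.42) fell together on the log2 scale. The fifth pair went in opposite directions, with Mrps34 lower and Eme2 higher, by 1.79. The adjusted p of these 5 neighbours was 0.0109 or lower in limma, and Ncapd2 lost its call without UT replicate 3 (adjusted p = 0.0548).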

How the data were processed

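Libraries of 3′ ends were made from 100 ng total RNA with the QuantSeq forward kit and 16 PCR cycles, per the labels' protocols. GRCm38 (mm10), edgeR, limma, MultiQC, featureCounts 1.5.1 and STAR 2.5.2b appear in the submitters' processing notes, without roles. The sources used here give no filter, strand setting or annotation release. Values the authors deposited are scores on a log2 scale, read here as quantile-normalised log2 CPM from the values themselves: they are written with decimal commas, and each library's values, raised from the log2 scale, total 987472 to 987498. Quantile normalisation hides a shift common to most transcripts. The test therefore ran on normalised values and not on counts. Depth was estimated from the steps between low values and is approximate.

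Tests covered the 12196 genes that reached 0 log2 CPM in 3 or more libraries (8 were removed) and used limma 3.58.1 (R 4.3.3; a mean per group, mean trend, two-sided, Benjamini-Hochberg over all tested genes). Coordinates are from GENCODE on GRCm38. Members and lists were chosen with earlier results of these data known. Named members were the 8 largest called rises and falls in each comparison with UT, the 4 smallest p in the inhibitor comparison, the 4 highest and 4 lowest levels, and 10 chosen for their roles. The test procedure was also run on simulated data with far fewer changed genes than were called here, which does not vouch for these calls. Alternatives were the replicate number as a block, no filter, a filter at 10 CPM, other centring, other variance settings, library weights, 2 groups only, a 1.5-fold minimum and each library left out.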

Additional observations from a re-analysis of the deposited data

How the results depend on the processing

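Leaving out each library in turn, the members called in LPS against UT ranged from 5 to 10 higher and from 10 to 14 lower, in LPS + BMS against LPS stayed at 0 and 0, and in LPS + BMS against UT ranged from 6 to 12 higher and from 8 to 15 lower. Calls over all tested genes moved in these fits as well. They ranged from 2271 to 2763 higher and from 2519 to 3276 lower in LPS against UT. In LPS + BMS against LPS they ranged from 27 to 140 and from 35 to 177, and in LPS + BMS against UT from 2151 to 2944 and from 2552 to 3463. The 5 members higher in LPS against UT came without LPS replicate 3, beside 2271 of 12195 tested genes. Without LPS replicate 1, the shallowest library, 10 members were higher and 14 lower, beside 2763 and 3276 of 12184 tested genes. In every such fit 5 of the 8 higher calls (Mrpl20, Mrpl32, Mrpl52, Mrpl54 and Mrps18b) and 7 of the 15 lower calls (Mrpl2, Mrpl28, Mrpl41, Mrpl51, Mrps12, Mrps16 and Mrps24) in LPS against UT remained. With weights per library there were 15 higher and 17 lower in LPS against UT, beside 26.9% and 31.5% of all tested genes, and 14 and 17 in LPS + BMS against UT, beside 25.8% and 30.4%. In LPS + BMS against LPS, 1 member, Mrpl45, was called higher with the filter at 10 CPM and with weights (limma adjusted p = 0.0316 and 0.0106), and 1, Mrpl4, lower with weights (limma adjusted p = 0.0304). In that comparison, weights called 3.34% of all tested genes higher and 3.34% lower. The filter at 10 CPM gave 138 of 7915 tested genes called higher. Weights also called Mrpl4 lower in LPS against UT (limma adjusted p = 0.016). The causes were not tested. The median difference over the members crossed 0 when libraries were left out, from -0.07 to 0.05 in LPS against UT.

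No called member changed sign in any alternative run. Filters, variance settings, the replicate block, 2 groups only and the 1.5-fold minimum leave a gene's difference as it is. Only the other alternatives could therefore change a sign. Of members not called, 23 of 54 in LPS against UT, 36 of 77 in LPS + BMS against LPS and 13 of 57 in LPS + BMS against UT changed sign in at least 1, all with differences of 0.34 or less on the log2 scale; alternatives were tabulated singly only for genes whose differences are given above, a set narrowed after these sign changes were seen.

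With the replicate number as a block, 8 members were higher and 12 lower in LPS against UT, beside 2530 and 3001 of 12196 tested genes. In LPS + BMS against LPS there were 0 and 0, beside 95 and 113 of all tested genes. In LPS + BMS against UT there were 9 and 10, beside 2537 and 3021. Libraries with the same number did not deviate together (correlations of deviations from -0.30 to 0.17 over 9 pairs), so the numbers were not taken as pairing. Low members rest on few reads, and differences under about 0.45 on the log2 scale lie within the median 95% half-interval.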
